A study of Mus musculus with 96 samples.

Results

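Pre-haematopoietic stem cells (pre-HSCs) of the mouse yolk sac were compared with those of the aorta-gonad-mesonephros (AGM) region at embryonic stage E11.5. Cells were chosen by the title of each sample, which gave 16 yolk sac cells and 48 AGM cells, 64 of the 96 cells in the series. All embryos were of the C57BL/6 strain, and no transgene, deletion or treatment is named. Cells of both tissues carry the same sorting gate in the labels: absence of the erythroid marker Ter119 and of the myeloid marker CD11b, and presence of CD144 (encoded by Cdh5), c-Kit (Kit) and EPCR (Procr). The other 32 cells are fetal liver HSCs of E12.5 and E14.5, sorted by other gates and used below only for a few levels. The labels name no embryo or litter, so each tissue counts as 1 sample, no difference below has a replicate check, and no test was made.

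HSCs arise in the embryo from haemogenic endothelium, a specialised vessel lining whose cells switch off the endothelial programme as they enter blood. The AGM, around the dorsal aorta, is the classical site of this transition, where Notch signalling in arterial endothelium is required. The yolk sac is an extra-embryonic membrane with its own vessels and visceral endoderm, and it produces the earliest blood cells. A pre-HSC carries both vessel and blood surface proteins and has to mature before it can repopulate an adult.

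Yolk sac cells had between 845741 and 1922746 reads (median 1446148), and AGM cells between 267500 and 1889909 (median 1198310). The cells differed widely in the number of genes detected, from 2675 to 10823 in yolk sac and from 3486 to 11094 in AGM. Yolk sac cells 1, 2 and 3 and AGM cells 1, 5, 8 and 36 stood apart with over 9000 genes. Levels are counts per 1000000 reads (CPM), either in 1 cell or pooled over a group (22306075 reads in yolk sac and 60280645 in AGM). Intervals are exact 95% limits, Poisson for pooled reads and Clopper-Pearson for shares of cells. They take reads or cells as independent draws, and neither kind covers differences between embryos or litters. The Poisson limits also leave out the spread between cells. Reads without molecular identifiers are not independent molecules, so these limits are too narrow even for counting error.

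The gate was not reflected equally in the RNA of both tissues. Cdh5 or Procr was read in 48 of 48 AGM cells but in 8 of 16 yolk sac cells (50%, interval 24.65% to 75.35%), namely cells 1, 2, 3, 4, 6, 7, 9 and 15. Cdh5, Procr and Kit were read together in 35 of 48 AGM cells and 5 of 16 yolk sac cells, and yolk sac cells 8, 10 and 16 had a read of none of them. Itgam, which encodes the CD11b that the gate excludes, was read in 37.5% of yolk sac and 16.67% of AGM cells. Its level was low: 6.73 CPM over the yolk sac cells with Cdh5 or Procr, 0.103 over the others and 1.48 in AGM. Of its exon bases 68.7% overlap another gene. The yolk sac cells with Cdh5 or Procr also had more genes detected, 4746 to 10823 (median 7498), against 2675 to 5776 (median 4726) in the other 8. Ptprc, the pan-leukocyte gene CD45, was named after its values were seen; it was read in 7 of the 8 yolk sac cells with Cdh5 or Procr and in 2 of the 8 without. Yolk sac cell 3 had a read of 18 members of the visceral endoderm list, against 1 to 8 in the other yolk sac cells, and held 86.2% of the yolk sac reads of Afp. The summed CPM of that list did not single it out, with 3609 CPM in cell 3 and up to 5791 CPM in cell 6, where Apoe alone, read in every cell, had 5597 CPM. Yolk sac cell 12 held 70.9% of the yolk sac reads of the globin gene Hbb-y. Afp and Hbb-y were also named after their values were seen. Y-linked genes were read in 5 of 16 yolk sac cells and 28 of 48 AGM cells; the part of embryo sex in the results was not tested.

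More genes were called lower than higher in yolk sac. Of 19836 genes, 14353 had at least 30 reads over the 64 cells. A gene was called by the 2-fold rule when its pooled CPM, after 1 CPM was added to both groups, differed at least 2-fold, a read occurred in 25% or more of the higher group's cells, no cell held over 50% of that group's reads, and the mean of the cells' log2(CPM + 1) had the same sign. By this rule 523 genes (3.64%) were higher and 1158 (8.07%) lower in yolk sac. Without the conditions on single cells, 1302 and 3202 genes were past 2-fold. A gene was called by the share rule when the share of cells with a read differed by at least 40 percentage points, which held for 22 genes (0.153%) read in more yolk sac cells and 15 (0.105%) read in fewer. The median log2 ratio over all genes tested was −0.25, the value beside which list medians stand. Scaling by median of ratios in place of total reads raised that median by 0.13 and gave 674 genes higher and 943 lower, so that higher calls were 41.7% rather than 31.1% of all calls. When every single cell was left out in turn, 220 of the 523 and 799 of the 1158 genes stayed past 2-fold each time. Since AGM has more cells, the limit on 1 cell's reads is easier to meet there; with AGM cells numbered 1 to 16 only, chosen after seeing the data, 587 genes were higher and 1617 lower, of which 299 and 808 were among the first calls. That choice also changes the kind of cell, since 15 of these 16 cells had more genes detected than the AGM median of 5522.5, and 3 of them had over 9000.

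**Figure D1:**
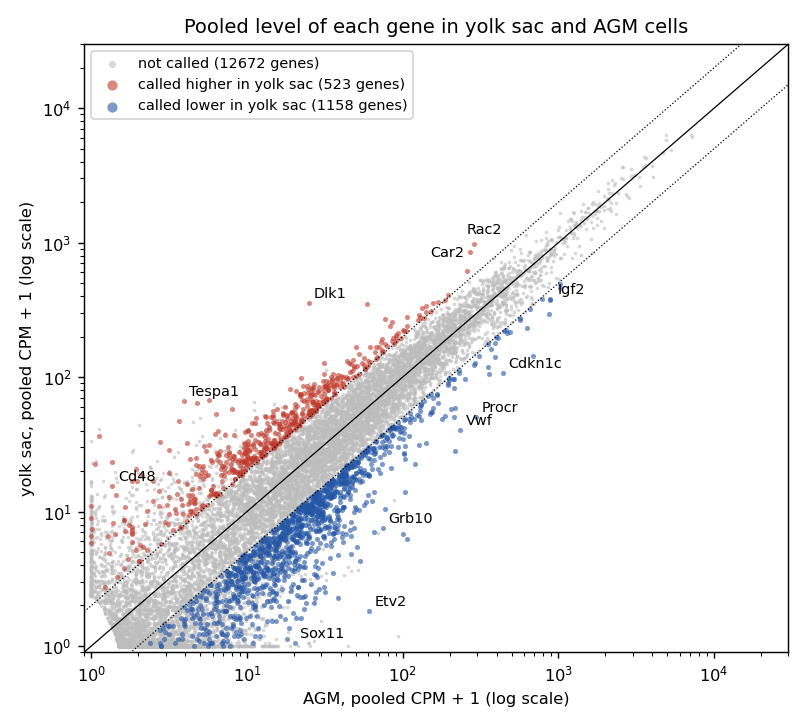
Pooled CPM + 1 of each of the 14353 genes tested in AGM (x axis) and yolk sac (y axis), both on log scales; each point is a gene, the solid line is equality and the dotted lines are 2-fold. The 523 genes called higher and the 1158 called lower lie outside the dotted lines, and grey points outside them failed a condition on single cells.

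Genes of blood cell surfaces and of the leukocyte cytoskeleton were higher in yolk sac. Of 31 members tested, 27 had a ratio above 0, with a median log2 ratio of 0.75. In all 10 were called higher, against 3.64% of all genes (Cd48, Cd37, Lcp1, Rac2, Fcer1g, Plek, Lsp1, Cytip, Evi2a and Itgb2), and 1 lower, against 8.07%. Rac2, a small GTPase of haematopoietic cells, ranged over the yolk sac cells from 0 to 1886 CPM (median 969) and over the AGM cells from 0 to 1096 CPM (median 227.7). Its pooled level was 969 CPM (956 to 982) against 285 (281 to 289), a log2 ratio of 1.76. The groups overlapped, but 15 of 16 yolk sac cells lay above the AGM median. Lcp1, the actin bundler L-plastin, had a cell median of 351 CPM in yolk sac and 70.6 in AGM, with pooled levels of 328 and 132 CPM (log2 ratio 1.31). Plek, which encodes pleckstrin, was read in 13 of 16 yolk sac and 17 of 48 AGM cells, at 84.2 and 23.3 CPM. Itgb2, the beta chain of the leukocyte integrins, was read in 12 of 16 and 11 of 48 cells, at 80.2 and 25.5 CPM; without AGM cell 23 its log2 ratio went from 1.62 to 2.50. For Plek and for Itgb2, each taken alone, most AGM cells therefore had no read, while most yolk sac cells had one. Evi2a, a membrane protein gene, had 52.1 and 5.34 CPM. Cd48 was read in few cells of either tissue, 4 of 16 and 2 of 48, at 14.4 and 0.365 CPM. Spn, which encodes the leukocyte sialoglycoprotein CD43, was the member called lower, at 9.19 CPM in yolk sac and 51.5 in AGM.

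The endothelial genes were lower in yolk sac. Of 37 pan-endothelial genes tested, 35 had a ratio below 0, 19 were called lower, against 8.07% of all genes, and 0 higher, and the median log2 ratio was −1.12. Vwf, the clotting factor stored by endothelium, had a median of 0 CPM over the yolk sac cells, with a highest value of 230.4, and a median of 116 CPM over the AGM cells, with a highest value of 1155. It was read in 5 of 16 and 39 of 48 cells, and its pooled levels of 39.3 and 233.1 CPM gave a log2 ratio of −2.54 (−3.37 without yolk sac cell 6). Cgnl1, which codes for a junction protein, was read in 3 of 16 and 25 of 48 cells (log2 ratio −3.46, and −4.37 without yolk sac cell 1), and Ets1, a transcription factor of vessels and lymphocytes, in 3 of 16 and 19 of 48. Sox18, a vessel transcription factor, had 10.7 and 56.8 CPM. Not all endothelial genes differed in this way: Egfl7, one of the most abundant of them, was read in every cell, at 644 and 772 CPM. Cd34, a surface protein of vessels and blood progenitors, had 999 and 1064 CPM. Kit had 101 and 93.1 CPM, whereas Procr, the gate gene with the largest ratio of pooled levels, had 49.4 and 296 CPM. Procr was read in 6 of 16 and 41 of 48 cells, and Cdh5 in 43.75% and 93.75% of cells.

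**Figure D2:**
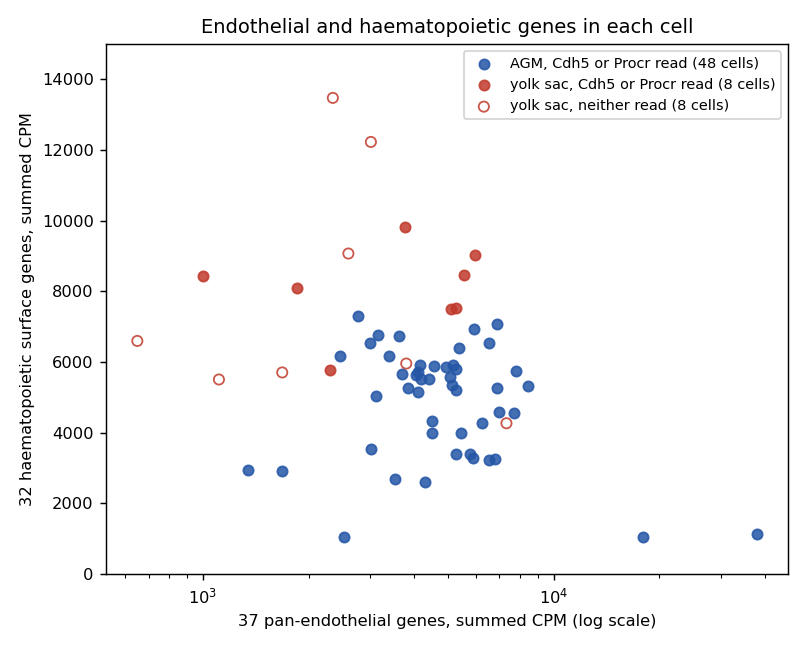
Summed CPM of the 37 pan-endothelial genes (x axis, log scale) and of the 32 haematopoietic surface and cytoskeleton genes (y axis) in each of the 64 cells; filled red points are yolk sac cells with a read of Cdh5 or Procr and open ones are those without. The haematopoietic sum has a median of 7806 CPM in yolk sac and 5293 CPM in AGM, and the endothelial sum one of 2805 and 4749 CPM, with overlapping ranges.

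Leaving out the 8 yolk sac cells without a read of Cdh5 or Procr gave 623 genes higher (4.39%) and 1022 lower (7.20%), of which 300 and 625 were among the first calls, and a median over all genes of −0.20. The number of calls changed most in the ribosomal protein and oxidative phosphorylation lists. By median, the venous and lymphatic list moved more, from −1.19 to −0.58, with 0 called. Of the 80 cytosolic ribosomal protein genes 31 were then called lower in place of 5, with a median of −0.89, and of the 79 genes of oxidative phosphorylation 30 in place of 5, with a median of −0.80. Of the 31 haematopoietic surface genes, 10 were again called higher, with a median of 0.72, and Rac2 had a log2 ratio of 1.66. The pan-endothelial list had 14 of 37 called lower and 1 higher, with a median of −0.93. Since the cells were kept for their reads of Cdh5 or Procr, and the list holds Cdh5, a smaller endothelial difference is in part set by that choice and nothing is read from it. By the share rule, 911 genes were read in more of these 8 cells than of the AGM cells and 8 in fewer. These 8 cells also had more genes detected. The part of that in the share calls was not tested, and nothing is read from them.

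Members of the arterial and Notch list were mostly lower in yolk sac. Of 28 tested, 10 were called lower, against 8.07% of all genes, and 0 higher. The median log2 ratio of −1.21 was −1.86 without yolk sac cell 1 and −0.59 without AGM cell 3. Among the ligands, Dll4, the Notch ligand of arteries, was read in 4 of 16 yolk sac and 17 of 48 AGM cells, at 4.44 and 50.1 CPM (log2 ratio −3.23, and −4.06 without yolk sac cell 1). Efnb2, the arterial ephrin ligand, had 1.75 and 8.51 CPM, and without yolk sac cell 1 its log2 ratio went from −1.79 to −2.54. Among the Notch targets, Hes1, a repressor, was read in 9 of 16 and 46 of 48 cells. Its cell median was 1.82 CPM in yolk sac and 143.7 in AGM, while its pooled levels were 72.7 and 164.1 CPM, and yolk sac cell 10 alone had 839 CPM; the log2 ratio of −1.16 became −2.40 without that cell. Hey1, a related repressor, had 6.68 and 35 CPM, with a log2 ratio of −2.23 that became −3.09 without yolk sac cell 1. Nrarp, a feedback inhibitor of Notch, had 5.92 and 39.7 CPM; 79.4% of its exon bases overlap another gene. Mfng, which modifies Notch receptors with sugar, was at equal levels of 267 and 266 CPM. The 11 venous and lymphatic genes tested had a median of −1.19 with 0 called in either direction, and with AGM cells 1 to 16 only that median was 0.31.

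Among haematopoietic transcription factors 6 of 27 were called lower, against 8.07% of all genes, and 2 higher, against 3.64%, while the median was −0.02 (0.12 with median-of-ratios scaling). Etv2, the factor that specifies blood and vessel precursors, had the ratio furthest towards AGM among the called genes. It was read in 2 of 16 yolk sac cells, at most at 8.84 CPM, and in 18 of 48 AGM cells, up to 1154 CPM, so that the pooled levels were 0.807 (0.478 to 1.28) and 59.7 CPM (57.8 to 61.7). The median cell of either tissue had no read, and the log2 ratio of −5.07 became −4.30 without AGM cell 46 and −5.86 without yolk sac cell 1. Cebpb, a stress-induced myeloid factor, was read in 8 of 16 and 46 of 48 cells, with cell medians of 3.15 and 122 CPM. Gfi1, a repressor needed for the endothelial to haematopoietic transition, had 6.1 and 36.8 CPM. Its paralogue Gfi1b, which acts in the erythroid and megakaryocyte lineages, went the other way with 124 and 45.8 CPM. Without yolk sac cell 12, which also held most yolk sac reads of Hbb-y, the log2 ratio of Gfi1b was 0.68 rather than 1.42. Ikzf1, the lymphoid factor Ikaros, had 48.9 and 19.6 CPM and was read in 12 of 16 and 30 of 48 cells. Spi1 (PU.1) and Lmo2 did not separate the tissues, with 429 and 435 CPM for Spi1 and 273 and 296 CPM for Lmo2.

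**Figure D3:**
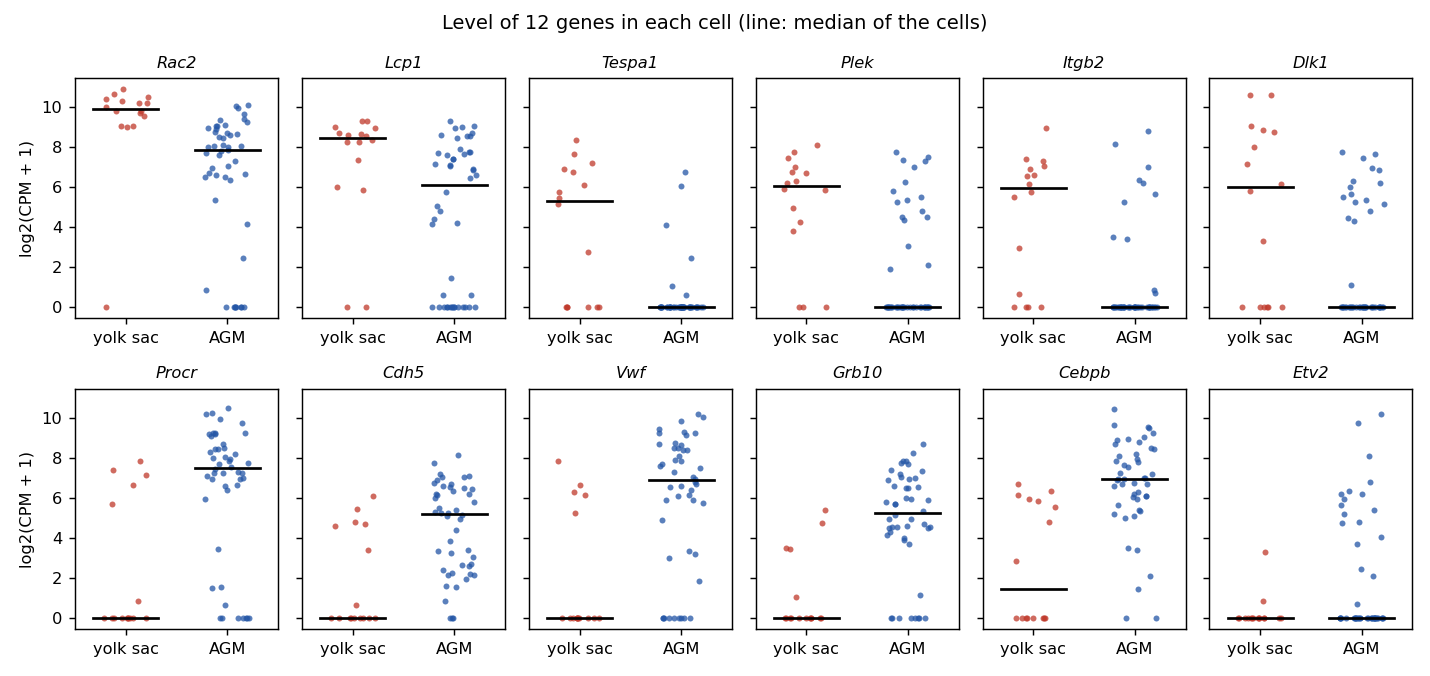
log2(CPM + 1) of 12 genes in each of the 16 yolk sac and 48 AGM cells (x axis: tissue; horizontal position within a tissue is arbitrary; black line: median of the cells). Rac2 and Lcp1 are read in most cells of both tissues, while the AGM medians of Tespa1, Plek, Itgb2 and Dlk1 and the yolk sac medians of Procr, Cdh5, Vwf and Grb10 are 0.

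Of 28 genes that regulate HSCs 8 were called lower, against 8.07% of all genes, and 1 higher, near the 3.64% of all genes, with a median of −0.51. Mllt3, which supports stem cell maintenance, had 16.5 and 51.2 CPM. Hmga2, a chromatin protein of fetal stem cells, was read in every cell of both tissues, at 90 and 194.2 CPM. Of 20 Hox genes 3 were called lower, against 8.07% of all genes. Hoxb9 was read in 1 of 16 and 17 of 48 cells, Hoxa5 in 6 of 16 and 28 of 48 (log2 ratio −1.52, and −2.16 without yolk sac cell 5), and Hoxb4 in 0 of 16 and 13 of 48. With 0 yolk sac reads and only 1.79 CPM in AGM, Hoxb4 was at least 13.3-fold lower when yolk sac is set at a floor of 3 pooled reads. Hoxa9, a posterior HoxA gene of HSCs, was level at 64.5 and 64.4 CPM.

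Imprinted genes, which are expressed from 1 parental copy and control growth and stem cell quiescence, were called lower in 15 of 41 cases, against 8.07% of all genes, with a median of −0.85. The 2 called higher are near the 3.64% of all genes. Grb10, an adaptor that restrains growth factor signalling, was read in 5 of 16 and 40 of 48 cells, with cell medians of 0 and 36.7 CPM and pooled levels of 6.55 and 73.8 (log2 ratio −3.31, and −3.93 without yolk sac cell 4). Cdkn1c, the cell cycle inhibitor p57, had cell medians of 44.8 and 295 CPM and was read in 12 of 16 and 47 of 48 cells. Igf2, a fetal growth factor, was read in every cell, at 379.6 and 886 CPM; 64.5% of its exon bases overlap another gene. Gnas, a G protein subunit, had 381 and 784 CPM. Dlk1, a transmembrane protein of the Notch ligand family expressed from the paternal copy on chromosome 12 (109452823 to 109463336, GRCm38), ran against these genes. It ranged up to 1539 CPM in yolk sac (median 63) and up to 215.03 CPM in AGM (median 0). Its pooled level was 352 CPM (344 to 359.7) in yolk sac and 23.9 (22.6 to 25.1) in AGM. In E12.5 and E14.5 liver Dlk1 stood at 328 and 138 CPM, and Grb10 at 62.3 and 65.3. Atp10a, a lipid flippase, was the other member called higher, at 31.4 and 3.12 CPM.

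The largest ratios in favour of yolk sac belonged mostly to genes with no read in the median cell of either tissue. Arhgap15, a Rac regulator of leukocytes, was read in 4 of 16 yolk sac and 1 of 48 AGM cells, with 3 reads in all of AGM. Tespa1, which acts in thymocyte receptor signalling, was read in 10 of 16 and 6 of 48 cells, with cell medians of 38.8 and 0 CPM. Brat1, Rasal3, Cfp, Cxcl10, Pcp4l1 and Gpr65 were read in 4 of 16, 7 of 16, 7 of 16, 6 of 16, 7 of 16 and 5 of 16 yolk sac cells, and in 1 to 7 of 48 AGM cells. Cfp encodes properdin of the complement system and Cxcl10 an interferon-induced chemokine. Afmid, of tryptophan breakdown, had 0 AGM reads and 9.91 CPM in yolk sac, where 31.25% of cells had a read. Its level was 19.74 CPM over yolk sac cells without a read of Cdh5 or Procr (2 with a read of Afmid). Over the other yolk sac cells it was 2.375 CPM (3 with a read). With AGM set at a floor of 3 pooled reads it was at least 199.1-fold higher, a bound on reads and not on molecules. Of its exon bases 46.6% overlap another gene. Leaving out 1 cell moved several of these log2 ratios by over 1.5 times in level: Arhgap15 from 4.43 to 3.64 without yolk sac cell 13, Brat1 from 4.12 to 3.51 without yolk sac cell 6 and 3.53 without cell 7, Cfp from 3.74 to 3.11 without yolk sac cell 7 and 4.41 without AGM cell 17, Rasal3 from 3.68 to 5.19 without AGM cell 38, Cxcl10 from 3.58 to 4.53 without AGM cell 21 and Tespa1 from 4.07 to 4.72 without AGM cell 46.

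The share rule named partly other genes. Pkib, an inhibitor of protein kinase A, was read in 11 of 16 yolk sac and 3 of 48 AGM cells, H2-T23, a non-classical MHC class I gene, in 10 of 16 and 10 of 48, and Serpinb1a, a protease inhibitor of myeloid cells, in 11 of 16 and 11 of 48. Cpsf4, of mRNA 3' end processing, was read in 15 of 16 and 19 of 48, and Glipr2 in 14 of 16 and 20 of 48. In the other direction, Hacd4, of very long chain fatty acid synthesis, was read in 8 of 16 and 45 of 48 cells, Tspan18, a tetraspanin, in 5 of 16 and 41 of 48, and Afdn, the junction protein afadin, in 5 of 16 and 36 of 48. Thinning left most of the shares examined close to their values: with each cell thinned to 690000 reads, which left out 5 AGM and 0 yolk sac cells, Plek was read in 81.25% of yolk sac and 32.6% of AGM cells (unthinned 81.25% and 35.4%), and Procr in 37.5% and 83.7% (unthinned 37.5% and 85.4%). H2-T23 is an exception, since thinning took its yolk sac share from 62.5% to 43.75%. Single cells moved 3 of these pooled ratios: H2-T23 from 1.71 to 2.32 on the log2 scale without AGM cell 32, Hacd4 from −1.39 to −2.11 without yolk sac cell 6, and Afdn from −2.43 to −3.10 without yolk sac cell 2. Of the 22 and 15 genes, 15 and 13 were called again among the 23 and 19 genes of the thinned data.

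**Figure D4:**
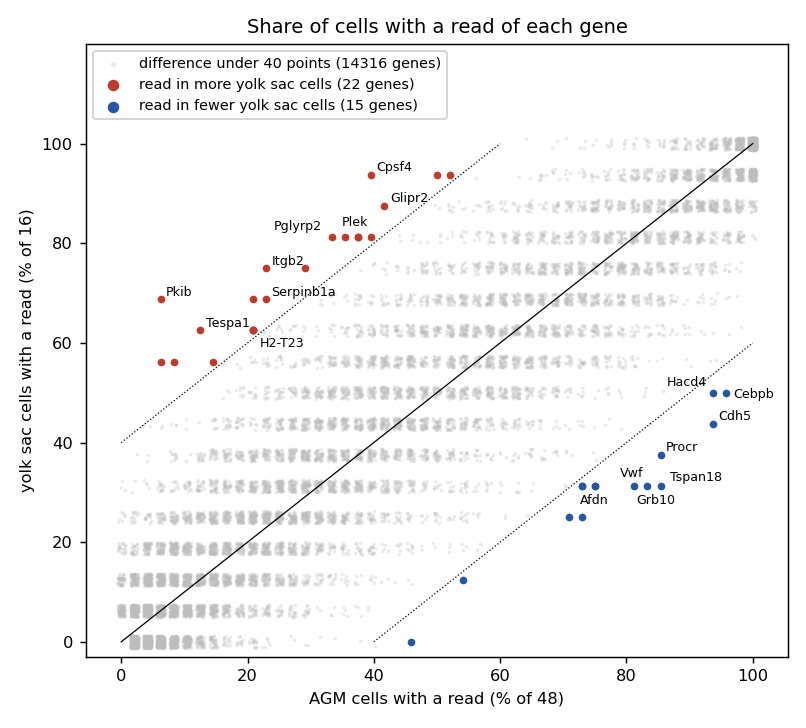
Share of cells with a read of each of the 14353 genes tested in AGM (x axis, percent of 48 cells) and yolk sac (y axis, percent of 16 cells), with grey points spread slightly at random so that they can be seen; the solid line is equality and the dotted lines are a difference of 40 percentage points. The 22 red genes lie above and the 15 blue genes below the dotted lines, and those chosen by the naming rule are labelled.

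Genes with the largest ratio in favour of AGM, beside Etv2, included developmental and mesenchymal genes. Sox11, a transcription factor of progenitors, had 1 read in yolk sac and 19.3 CPM in AGM, where it was read in 12 of 48 cells. Bex2, Cyr61 and Fzd4, the last a Wnt receptor, were read in 4 of 16, 4 of 16 and 1 of 16 yolk sac cells and in 19 of 48, 15 of 48 and 16 of 48 AGM cells; the log2 ratio of Cyr61 went from −3.88 to −3.23 without AGM cell 8. The smooth muscle genes Myl9, Acta2 and Tagln were the 3 of 17 mesenchymal genes called lower, against 8.07% of all genes. Myl9 had 5.25 and 106 CPM, with a log2 ratio of −4.10 (−5.41 without yolk sac cell 6), and Acta2 25.6 and 100.3 CPM (−1.93, −2.61 without yolk sac cell 6 and −2.55 without cell 1). The summed mesenchymal list ran from 0 to 281.0 CPM over the yolk sac cells, with 8 of 16 at 0, and from 0 to 1445 CPM over the AGM cells, with 10 of 48 at 0. Whether cells of another type in the sort have a part in these calls was not tested. Of 25 extracellular matrix genes, 10 were called lower, against 8.07% of all genes, and 2 higher, against 3.64%, with a median of −1.49 (−2.24 without the cells with over 9000 genes). Fn1, fibronectin, had cell medians of 12.9 and 296 CPM, and Col18a1 pooled levels of 53.7 and 152.7 CPM. Lamc1, a laminin chain, was higher at 22.6 and 9.77 CPM.

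Signalling targets followed mixed patterns. In the BMP and TGF-beta list 7 of 25 were called lower, against 8.07% of all genes, and 2 higher, against 3.64% (median −1.17). Id2, an inhibitor of DNA-binding factors induced by BMP, had cell medians of 0 and 51.4 CPM, while its log2 ratio of −2.02 became −2.64 without yolk sac cell 10. Id3, a related target, had cell medians of 0.321 and 239 CPM; its log2 ratio was −1.44, and −2.38 without the same cell. The signal transducers Smad1 and Smad5 were the 2 called higher, at 13.5 and 4.86 CPM for Smad1 (0.68 in place of 1.31 on the log2 scale without yolk sac cell 13) and 31.1 and 13.2 CPM for Smad5. Of 14 retinoic acid genes, 3 were called lower, against 8.07% of all genes (median −1.13). Of 31 immediate-early genes, which respond to stress and dissociation, 9 were called lower, against 8.07% of all genes, and 1 higher, near the 3.64% of all genes (median −0.61). Fosb had 19.4 and 55 CPM, whereas Egr1, read in 14 of 16 and 41 of 48 cells, was higher at 165.7 and 66.5 CPM, and Fos and Junb were not called.

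Cell cycle genes leaned towards yolk sac without many calls. Of 33 DNA replication genes 31 had a ratio above 0, with a median of 0.39, and 0 were called in either direction. Of 32 mitosis genes 26 had a ratio above 0 (median 0.42) and 3 were called higher, against 3.64% of all genes. Ccna2, cyclin A2, had cell medians of 157.4 and 15.2 CPM and was read in 15 of 16 and 35 of 48 cells. Plk1, a mitotic kinase, was read in 10 of 16 and 18 of 48 cells, and Bub1, of the spindle checkpoint, in 8 of 16 and 23 of 48. Of 14 D cyclin and CDK inhibitor genes, 8 had a ratio above 0 (median 0.09), 3 were called lower, against 8.07% of all genes, and 0 higher. The 3 were Cdkn1c and, of the restriction point, Rb1 and E2f2. E2f2 was at a low level, 6.27 CPM in AGM, and after thinning was read in 0% of yolk sac cells.

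Lineage genes were called in both directions, and several of these counts were near the share over all genes. Of 16 myeloid and macrophage genes 10 had a ratio below 0, with a median of −0.67. Of the 16, 2 were called higher, against 3.64% of all genes, and 1, Ms4a3, lower, near the 8.07% of all genes. Of the 2, Mpo, the myeloperoxidase of granulocyte precursors, had cell medians of 259 and 68.5 CPM, and Csf3r, the G-CSF receptor, was read in 8 of 16 and 13 of 48 cells. Of 16 megakaryocyte and mast cell genes, 3 were called higher, against 3.64% of all genes, among them Gp9 and Selp. Vwf was the 1 called lower, near the 8.07% of all genes, and the list median of 0.39 changed sign to −0.81 without yolk sac cell 6. Selp, P-selectin, had 42.3 and 15.4 CPM, with a log2 ratio of 1.40 that was 0.75 without yolk sac cell 6. Of 14 lymphoid genes, with a median of 0.64, 3 were called higher, against 3.64% of all genes, among them Il2rg, the common cytokine receptor chain, at 133 and 47 CPM; 30.5% of its exon bases overlap another gene. Car2, carbonic anhydrase, was the 1 of 14 erythroid genes called higher, against 3.64% of all genes, with cell medians of 619 and 264 CPM. Hbb-bs was the 1 called lower, near the 8.07% of all genes. Without yolk sac cells 3 and 12 the erythroid list median went from 0.36 to −0.91. Of 28 MHC class I and interferon genes 14 had a ratio above 0 and 14 below, with a median of 0.07, and 3 were called higher, against 3.64% of all genes. Psmb8, an immunoproteasome subunit, was called higher at 129.5 and 42.9 CPM, with H2-T23 and Ifnar1. Ifitm2, an interferon-induced membrane protein with close relatives, was the 1 called lower, against 8.07% of all genes, at 457 and 1017 CPM. Of 17 visceral endoderm and hepatocyte genes, with a median of −0.41, 1 was called higher, near the 3.64% of all genes. In the same list 2, Apoc1 and Sox17, were called lower, near the 8.07% of all genes. The 1 called higher, Apoa2, an apolipoprotein of visceral endoderm, was read in 4 of 16 yolk sac cells and 1 of 48 AGM cells, and its log2 ratio of 2.57 became 1.98 without yolk sac cell 3.

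**Figure D5:**
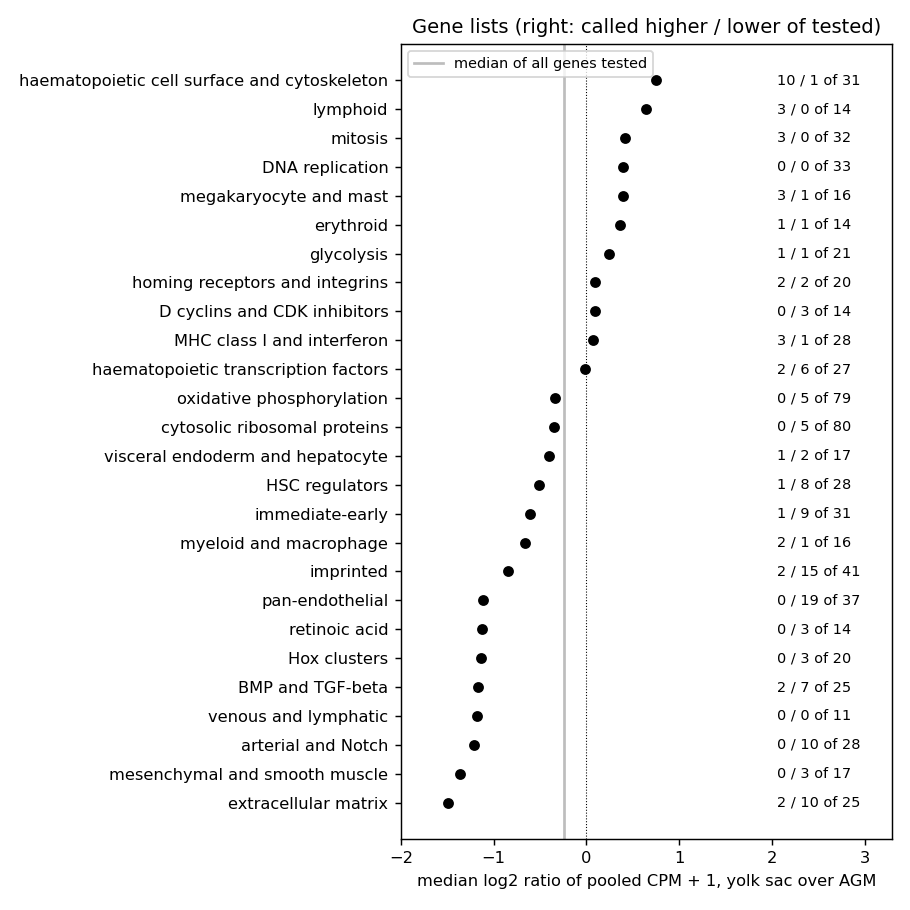
Median log2 ratio of pooled CPM + 1 (x axis, yolk sac over AGM) over the tested members of 26 gene lists (y axis), with the number called higher and lower of those tested at the right. The lists of gate genes and of sex-linked genes are not shown. Among the 26 shown, the haematopoietic surface list has the highest median, 0.75, and the extracellular matrix list the lowest, −1.49. The grey line is the median of all genes, −0.25.

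The ribosomal protein and oxidative phosphorylation genes had medians below that of all genes, and their calls depended on the yolk sac cells used. The 80 cytosolic ribosomal protein genes had a median of −0.35 with 5 called lower (below the 8.07% of all genes), and the 79 genes of oxidative phosphorylation a median of −0.34 with 5 called lower. With only the 8 yolk sac cells that had a read of Cdh5 or Procr, 31 and 30 were called lower, as given above, against 7.20% of all genes. The 5 ribosomal genes called, Rps27, Rps28, Rps29, Rpl36a and Rpl37a, have longest transcripts of 672, 1443, 461, 812 and 665 bases, in that order. Among 1586 genes read in at least 58 of the 64 cells, the 37 with a longest transcript of at most 600 bases had a median of −0.70, and 4 of them a ratio above 0, while the 505 genes of 1000 to 2000 bases had a median of −0.01. The share of a cell's reads in genes of at most 600 bases was 0.234% to 1.998% in yolk sac (median 0.606%) and 0.590% to 2.61% in AGM (median 1.24%). In the 8 yolk sac cells with a read of Cdh5 or Procr it was 0.234% to 0.803%, apart from 1.659% in cell 9. In the other 8 it was 0.319% to 1.998%, with cells 8, 11, 12, 14 and 16 at 1.359% or more. The part of transcript length in the ribosomal and respiratory calls was not tested. Of 21 glycolysis genes, 14 had a ratio above 0, with a median of 0.25, above that of all genes. Of the 21, 1, Slc16a3, was called higher, near the 3.64% of all genes, and 1, Ldhb, lower, below the 8.07%. Ldhb had 159.96 and 368 CPM. Ldha was higher by less than the fold required, at cell medians of 4072 and 2224 CPM.

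The bases before the start of genes with opposite behaviour are shown to let the sequences be read beside the levels: Dlk1 and Plek, called higher, and Etv2, called lower. Each run is the 120 bases before the RefSeq transcript start (GRCm38.p6), 5′ to 3′ on the gene's own strand, and lies outside annotated exons: chr12:109452703-109452822 on the plus strand for Dlk1, chr11:17008719-17008838 on the minus strand for Plek and chr7:30635853-30635972 on the minus strand for Etv2.
Dlk1: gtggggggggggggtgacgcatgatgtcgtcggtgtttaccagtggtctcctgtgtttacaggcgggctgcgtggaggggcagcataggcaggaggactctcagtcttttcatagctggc
Plek: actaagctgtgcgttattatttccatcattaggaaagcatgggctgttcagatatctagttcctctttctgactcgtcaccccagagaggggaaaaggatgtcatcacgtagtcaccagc
Etv2: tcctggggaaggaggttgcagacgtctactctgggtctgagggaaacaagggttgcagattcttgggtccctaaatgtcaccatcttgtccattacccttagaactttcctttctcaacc
In all, 2 motifs, both chosen after the data were seen, were searched on both strands in the 250 bases before each start. A tabled promoter was at hand for 397 of the genes called higher and 868 of those called lower. The background is the 26994 genes with a tabled promoter, read in these cells or not. The first motif was the core TGGGAA of the Notch effector RBPJ, found for 1 of 7 called arterial and Notch genes with a tabled promoter (Bmx). It was found for 21.4% of the genes called higher and 21% of those called lower, against 24.1% of the background. The second, tried after the first had no match before Nrarp, Efnb2, Dll4, Notch1, Procr, Etv2 or Dlk1, was GAGGAAG, a core bound by ETS factors. It was found for 7 of 24 haematopoietic surface genes (29.2%), of which Cd37 alone was among the 6 called higher with a tabled promoter. Of the genes called higher 13.1% had it and of those called lower 13.7%, against 12% of the background. Of 7 pan-endothelial genes called lower with a tabled promoter, 2 (Adgrf5 and Cgnl1) had the first motif and 0 the second. Neither set of letters set the called genes apart, and neither occurs in the 3 runs above, which therefore carry no capitals. A match is a description of letters, not of binding.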

How the data were processed

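Single cells were sorted into the wells of a plate, and their full-length cDNA was sequenced. The authors deposited read counts per gene and cell as whole numbers. The submitters' processing notes name FastQC, Trimmomatic 0.36, STAR, HTSeq and mm10; the strand setting and the annotation are not given in the sources used here. No molecular identifiers are named, so counts are reads.

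The table held 19949 rows, and 113 rows with a repeated symbol were summed, which gave 19836 genes. Each of the 96 columns carries the name of 1 sample. Counts were scaled to CPM per cell or per group of pooled cells. Genes needed 30 reads over the 64 cells. Since each tissue counts as 1 sample, the 2-fold and share rules describe these cells and no p-value is given. The rules were run on simulated counts with Poisson error only, a mean profile shared by all cells and some highly read genes changed 4-fold. Cells of a group differed there in depth alone, so the run cannot show how the rules treat genes driven by single cells. No doublet caller was run, since wells were sorted to hold 1 cell.

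The comparison, the gene lists (28 in all) and the rule for named genes were chosen with earlier results of these data known. Named genes are the gate and sex-linked genes, up to 6 called members in each direction and the 3 most abundant members of each list, the 12 largest ratios and the 8 largest share differences in each direction. The last 2 choices skip predicted genes, pseudogenes and mitochondrial, ribosomal protein and sex-linked genes. A few of the genes chosen in this way are not reported here. Positions and transcript lengths come from GENCODE M21 (GRCm38), to which 17646 gene IDs were matched without their version. Promoters come from RefSeq. Genes with near-identical copies (globins, the Ifitm family, ribosomal proteins) are uncertain, as are genes whose exons overlap another gene. Python 3.11.15, numpy 2.4.6, pandas 2.3.3 and scipy 1.17.1 were used. Alternatives added after seeing the data were AGM cells 1 to 16 only, leaving out cells with over 9000 genes, leaving out yolk sac cells 3 and 12, and transcripts over 1000 bases only.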

Additional observations from a re-analysis of the deposited data

How the results depend on the processing

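The 523 genes called higher and the 1158 called lower in yolk sac were 674 and 943 with median-of-ratios scaling, where higher calls were 41.7% of all calls in place of 31.1%; 523 and 1361 when CPM values of single cells were averaged; and 480 and 1275 with cells thinned to 690000 reads. As percentages of the genes tested, which were 3.64% and 8.07% as reported, adding 10 CPM gave 1.62% and 2.60%, a 4-fold limit 0.467% and 1.83%, and AGM cells 1 to 16 only 4.56% and 12.6%. Leaving out single cells gave 3.11% to 3.82% higher and 7.51% to 9.25% lower. The share rule moved more. Its 22 genes read in more yolk sac cells and 15 in fewer became 160 and 79 at 30 percentage points, 26 and 24 at a detection limit of 10 CPM, 18 and 26 without the deepest cell of each group, and 911 and 8 with only the yolk sac cells that had a read of Cdh5 or Procr. AGM cells 1 to 16 only gave 11 and 230, and leaving out the cells with over 9000 genes gave 19 and 83. Single cells left out gave 17 to 54 (54 without yolk sac cell 8) and 14 to 30 (30 without yolk sac cell 1). The causes were not tested. No called gene among those named changed direction under any alternative run. List medians that moved by over 1.5 times include arterial and Notch (−1.86 without yolk sac cell 1, −0.59 without AGM cell 3), megakaryocyte and mast (from 0.39 to −0.81 without yolk sac cell 6) and extracellular matrix (−2.24 without the cells with over 9000 genes). No paired analysis was possible because the cell numbers name wells and the result comes from no test. Cell number limits the shares: 1 yolk sac cell is 6.25 percentage points.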

Other observations

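The share rule also took genes outside the naming rule, singled out here after their values were seen. Among the 22 genes read in more yolk sac cells were Btk, a kinase of B and myeloid cells, Cd69, an early activation antigen of leukocytes, Ptpn7, a leukocyte phosphatase, and Nfam1, an activating receptor of lymphocytes. Btk was read in 13 of 16 yolk sac and 18 of 48 AGM cells, at pooled levels of 80.2 and 23.7 CPM. Cd69 was read in 9 of 16 yolk sac and 7 of 48 AGM cells, at pooled levels of 64.7 and 10.1 CPM. Ptpn7 was read in 13 of 16 yolk sac and 18 of 48 AGM cells, at pooled levels of 126 and 30.1 CPM. Nfam1 was read in 10 of 16 yolk sac and 10 of 48 AGM cells, at pooled levels of 72 and 24.8 CPM.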
